A study of Homo sapiens with 10 samples.

Results

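The genes described here are the metallothioneins MT1E, MT1F, MT1G, MT1M, MT1X and MT2A and the transcription factor MTF1, which switches metallothionein genes on. These 7 genes were picked by name from the 63299 gene rows of each count table, and all 7 have a row. Of the 7, MT1E, MT1X, MT2A and MTF1 carried enough reads to be among the 16143 genes tested, and MT1F, MT1G and MT1M did not. RNA-sequencing was performed in U2OS, a human osteosarcoma cell line, 48 h after control knockdown (siCtrl, 5 libraries) or knockdown of DDX41 with pooled siRNAs (siDDX41, 5 libraries). DDX41 is a DEAD-box RNA helicase, and the comparison of these groups asks which genes change in expression when it is depleted. All cells were of this single line, were grown in serum-containing medium and were labelled with no added metal or hormone. Nothing in the labels states that the 5 libraries of a group came from separate cultures, so the p-values measure the spread between these libraries, which may be technical.

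Metallothioneins are very small cysteine-rich proteins that bind zinc and copper through their thiol groups and also take up cadmium. MTF1 is a zinc-finger protein that binds DNA when zinc is plentiful, at short metal response elements in the promoters of metallothionein genes and of the zinc exporter SLC30A1. Glucocorticoids and oxidative stress raise metallothionein transcripts in many cells as well, and MT2A is commonly the most abundant family member in human cells.

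The coding sequences of the 3 metallothionein genes with many reads are shown first, because these near-identical genes gave different results in the same libraries. Each runs 5′ to 3′ from start to stop codon over 186 bases, read from GENCODE release 44, and capitals mark the cysteine codons.
MT2A: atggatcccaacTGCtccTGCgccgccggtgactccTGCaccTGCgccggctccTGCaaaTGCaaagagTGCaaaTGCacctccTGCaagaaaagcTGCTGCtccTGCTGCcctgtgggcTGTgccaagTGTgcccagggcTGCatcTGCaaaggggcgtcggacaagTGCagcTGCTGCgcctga
MT1E: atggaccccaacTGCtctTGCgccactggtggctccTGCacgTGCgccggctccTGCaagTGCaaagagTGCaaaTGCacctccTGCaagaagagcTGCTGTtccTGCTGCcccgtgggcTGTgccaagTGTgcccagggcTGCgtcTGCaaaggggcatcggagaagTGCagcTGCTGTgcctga
MT1X: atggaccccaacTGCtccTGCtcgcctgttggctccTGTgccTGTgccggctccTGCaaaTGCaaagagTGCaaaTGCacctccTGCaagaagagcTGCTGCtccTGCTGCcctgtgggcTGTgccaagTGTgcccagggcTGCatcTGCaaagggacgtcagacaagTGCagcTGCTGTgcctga
Each sequence holds 61 codons before the stop, and 20 of them encode cysteine. MT2A and MT1E have the same base at 92.5% of positions and differ at 14, MT2A and MT1X also differ at 14, and MT1E and MT1X differ at 17. MT1F and MT1M have 186 coding bases too, with identities among the 5 genes of this length from 88.7% to 92.5%, whereas MT1G has 189. Because reads from such copies could be confused, a transcript of each gene was cut into all windows of the read length, 84 bases. Each window was looked up in hg38 and in the spliced transcripts of GENCODE release 44. For MT1E the transcript searched had 704 bases, against 746 in the main model used for its level per kilobase. No other exact copy was found for 100% of the windows of MT2A, MT1E, MT1F and MT1M, 96.0% of those of MT1G, 94.7% of those of MT1X and 99.5% of those of MTF1. How the counting treated reads with more than one mapping place is not given in the sources used here.

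The 6 metallothionein genes lie in 1 cluster on chromosome 16 of hg38. MT2A occupies chr16:56608584-56609497, MT1E chr16:56625475-56627112, MT1M chr16:56632659-56633981, MT1F chr16:56657731-56660698 and MT1X chr16:56682470-56684196, all on the plus strand, and MT1G lies on the minus strand at chr16:56666730-56668065. MTF1 is on another chromosome, at chr1:37809574-37859592 on the minus strand. No annotated exon of another gene overlaps those of MT2A, MT1E, MT1F, MT1G, MT1M or MTF1. MT1X shares 321 exon bases with an unnamed gene on its own strand that had 0 counts in these libraries. How reads over such shared bases were counted is not given in the sources used here. Some MT1X reads may therefore be missing from its level, which was not tested.

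The count tables held between 21807041 and 24896398 reads per library. DDX41 itself fell from 48.7 ± 1.43 to 12.2 ± 1.00 CPM (SD, n = 5), to 25.1% of control, in accord with the labels. CPM, the usual unit of read counts relative to sequencing depth, were computed on library sizes scaled by edgeR's TMM factors. A gene was called higher or lower when edgeR's quasi-likelihood test gave a Benjamini-Hochberg adjusted p-value under 0.01. By this rule 32.1% of the tested genes were lower and 30.3% were higher after DDX41 knockdown, 62.4% in all. Vimentin, collagen 1A1, SPARC and fibronectin made the sum of 8 mesenchymal and osteoblast markers 8699 to 9024 CPM in siCtrl and 8608 to 8912 CPM in siDDX41 libraries, whereas the osteoblast regulator SP7 was near 0 (0.0165 and 0.0166 CPM) and collagen 1A2 (COL1A2) was low (0.448 and 0.316 CPM). The sum is carried by the 4 abundant genes, and of the 6 markers tested VIM, RUNX2 and ALPL fell, SPARC rose and COL1A1 and FN1 were not called. Their part in the results below was not tested.

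Of the 4 members tested, MT1E and MT1X were lower after DDX41 knockdown, none was higher, and MT2A and MTF1 were not called. With 32.1% of all tested genes called lower, a count of 2 of 4 is no result about the group, and the results below concern the sizes of the changes and the differences between members.

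MTF1, the activator, was expressed at 40.8, 38.3, 42.7, 40.5 and 43.2 CPM in siCtrl replicates 1 to 5 and at 41.7, 42.1, 40.2, 40.0 and 42.7 CPM in siDDX41 replicates 1 to 5. The siDDX41 values all lay inside the siCtrl range. The difference was 0.01 on the log2 scale (standard error 0.04, 95% confidence interval −0.07 to 0.09, edgeR adjusted p = 0.866). A change of MTF1 RNA beyond that interval was therefore not seen in these libraries, and the counts give no measure of the MTF1 protein, of its binding or of free zinc.

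MT2A had the most reads of the members. Its level was 272, 335, 246, 266 and 295 CPM in siCtrl replicates 1 to 5 and 299, 277, 320, 272 and 289 CPM in siDDX41 replicates 1 to 5. All 5 siDDX41 values lay between the lowest and the highest siCtrl value. The mean was 283 ± 34.1 CPM in siCtrl and 291 ± 19.3 CPM in siDDX41 (SD, n = 5), with a log2 fold change of 0.04 (standard error 0.08, 95% confidence interval −0.15 to 0.24, edgeR adjusted p = 0.680). The control values spread more widely than those of the other tested members.

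MT1E, a close copy of MT2A with its start 16891 bases downstream, fell. Its siCtrl libraries held 169, 186, 161, 166 and 173 CPM and its siDDX41 libraries 116, 107, 125, 115 and 116 CPM, in replicate order. The groups did not overlap, and the highest siDDX41 library was well under the lowest siCtrl library. MT1E dropped to 67.7% of control, a log2 fold change of −0.56 (standard error 0.04, 95% confidence interval −0.64 to −0.48, edgeR adjusted p = 5.37e-12). In bulk RNA, fewer cells that express a gene and less RNA per cell cannot be told apart. Of all tested genes, 14.6% had a log2 fold change as low as or lower than that of MT1E.

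MT1X, at the far end of the cluster, fell as well, from a much lower level. It was measured at 9.23, 10.9, 8.91, 10.2 and 9.33 CPM in siCtrl replicates 1 to 5, and at 6.21, 5.30, 5.32, 6.47 and 5.92 CPM in siDDX41 replicates 1 to 5. Again no siDDX41 library reached the lowest siCtrl library. MT1X was at 60.1% of control, a log2 fold change of −0.74 (standard error 0.08, 95% confidence interval −0.90 to −0.57, edgeR adjusted p = 1.84e-09). Between 122 and 267 MT1X reads were counted per library, against 2465 to 4567 for MT1E and 5852 to 8217 for MT2A. A log2 fold change as low as that of MT1X was found in 10.2% of the tested genes. Exact permutation tests of these single genes, two-sided, gave p = 0.00794 for MT1E and for MT1X, the smallest value that 5 against 5 libraries allow, p = 0.611 for MT2A and p = 0.802 for MTF1.

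**Figure D1:**
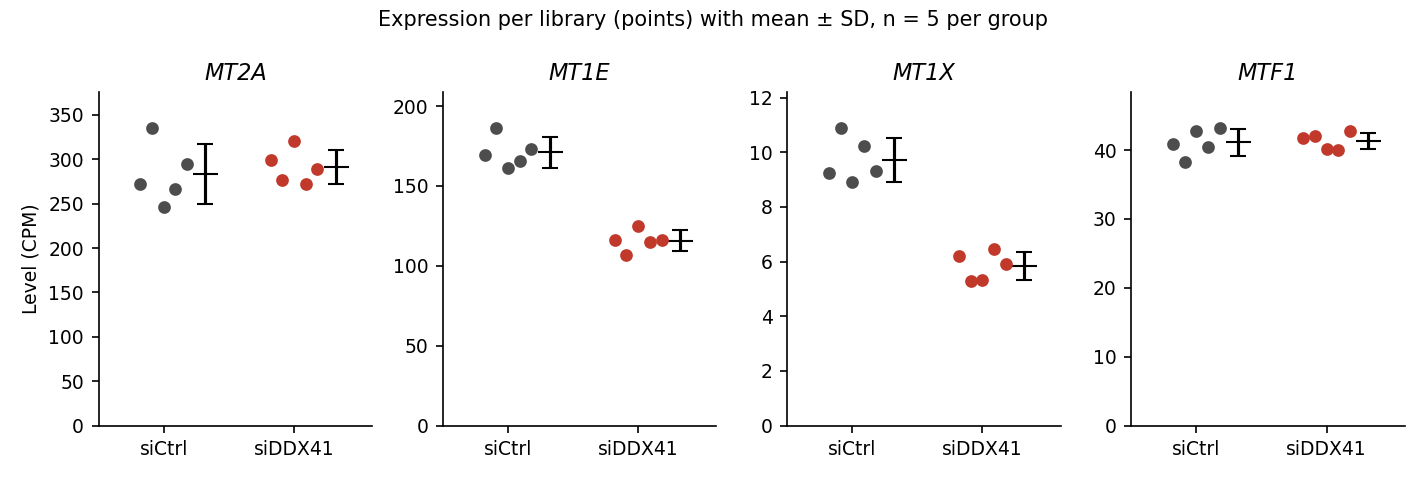
Level in CPM (vertical axes, starting at 0) of MT2A, MT1E, MT1X and MTF1 in each library, with siCtrl in grey and siDDX41 in red, points in replicate order from left to right, and bars for the mean ± SD of 5 libraries. The groups are separate for MT1E (161 to 186 against 107 to 125 CPM) and MT1X (8.91 to 10.9 against 5.30 to 6.47 CPM), and they overlap for MT2A and MTF1.

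Of the markers of epithelial cells, the keratins KRT5 and KRT14 were lower after the knockdown. KRT14 went from 17.2 to 1.78 CPM and KRT5 from 5.24 to 0.488 CPM, with only 57 KRT5 reads in siDDX41. EPCAM (0.06) and CDH1 (0.10 on the log2 scale) were not called, and none of the 4 was at 0. The sum of the 4 was 29.6 to 33.2 CPM in siCtrl and 10.4 to 13.6 CPM in siDDX41 libraries, a fall carried by KRT5 and KRT14. The part of these markers in the lower MT1E and MT1X was not tested.

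Levels of different genes were compared per kilobase of the main transcript model. In siCtrl, MT2A stood highest at 706 ± 84.9 CPM per kb, followed by MT1E at 229 ± 13.0, MT1X at 24.1 ± 2.03 and MTF1 at 5.18 ± 0.249 CPM per kb (SD, n = 5). After DDX41 knockdown the order on these models was the same, with 727 ± 48.1, 155 ± 8.48, 14.5 ± 1.30 and 5.21 ± 0.149 CPM per kb. Each step in this order was larger than the spread of the libraries. The step from MT2A to MT1E depends on the model, since the shortest MT1E model (332 bases) gave 515 CPM per kb in siCtrl and the longest MT2A model (903 bases) gave 313. The step from MT1X to MTF1 depends on it too, since the longest MT1X model (1727 bases) gave 5.63 CPM per kb in siCtrl and 3.38 in siDDX41, the latter below MTF1.

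The fall of MT1E and MT1X without a fall of MT2A changed the make-up of the metallothionein RNA. Per 100 MT2A reads, siCtrl replicates 1 to 5 held 62.1, 55.6, 65.4, 62.2 and 58.7 MT1E reads and siDDX41 replicates 1 to 5 held 38.9, 38.7, 39.0, 42.2 and 40.1. The groups did not overlap. Its mean went from 60.8 ± 3.77 to 39.8 ± 1.47 (SD, n = 5), and an exact permutation test of this ratio gave p = 0.00794, or 0.0119 with Benjamini-Hochberg adjustment over the 3 ratios compared. A ratio within a library does not depend on how library sizes are scaled. The 3 ratios were chosen after the levels of the genes had been seen, so they restate the difference between MT1E and MT2A and are not independent evidence of it.

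MT1X per 100 MT2A reads likewise went from 3.45 ± 0.278 to 2.02 ± 0.262 without overlap (exact permutation p = 0.00794, adjusted 0.0119). MT1X and MT1E differed less from each other. Per 100 MT1E reads there were 5.68 ± 0.326 MT1X reads in siCtrl and 5.06 ± 0.518 in siDDX41 libraries, the groups overlapped, and the exact permutation p was 0.0476, adjusted 0.0476. This last p-value rose to 0.0635 or 0.0952 when any 1 of 8 libraries was left out (all but siCtrl replicate 5 and siDDX41 replicate 4), with log2 ratios of −0.19 to −0.11 in those 8 cases against −0.17 with all libraries. It was 0.0476 without siCtrl replicate 5 and 0.0159 without siDDX41 replicate 4 (exact permutation tests).

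**Figure D2:**
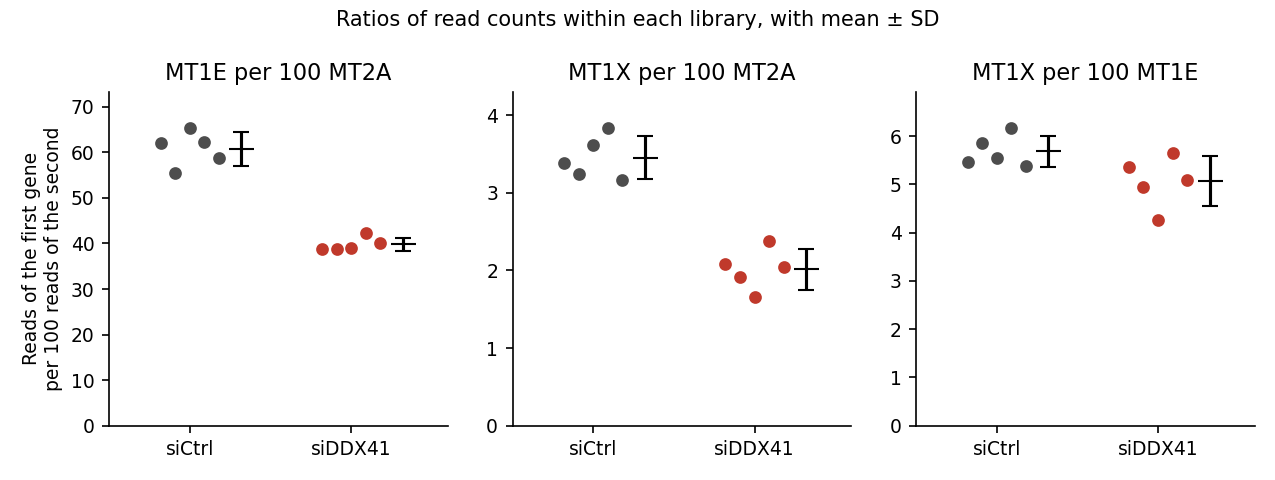
Reads of one metallothionein gene per 100 reads of another within each library (vertical axes, starting at 0), siCtrl in grey and siDDX41 in red, with mean ± SD of 5 libraries. MT1E and MT1X per 100 MT2A reads are lower in every siDDX41 library than in any siCtrl library, and MT1X per 100 MT1E reads overlap between the groups.

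As a share of the reads from the 6 metallothionein members, MT2A made up 60.9% ± 1.48 in siCtrl and 70.5% ± 0.833 in siDDX41 (SD, n = 5), and these shares did not overlap. The share of MT1E went from 37.0% to 28.1% and that of MT1X from 2.10% to 1.42%. Summed over the 6 genes, the level was 464 ± 44.3 CPM in siCtrl and 413 ± 24.7 CPM in siDDX41, at 89.0% of control. The summed levels overlapped, with siCtrl libraries from 416 to 533 and siDDX41 libraries from 389 to 451 CPM.

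The other members were at or near the limit of what this depth can show. MT1G had 2, 3, 1, 1 and 3 reads in siCtrl replicates 1 to 5 and a single read in all siDDX41 libraries together, in replicate 4. That read count equals the counts of siCtrl replicates 3 and 4, so the groups touch. The 10 control reads against 1 give a ratio of 9.78 at equal depth with an exact 95% interval from 1.39 to 424, which covers counting error only. MT1G did not pass the filter on low counts, and with the filter removed edgeR gave an adjusted p of 0.0304, above the threshold used here.

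MT1F had 3 reads in siCtrl, 2 in replicate 1 and 1 in replicate 3, and 0 in siDDX41. Without the filter, its edgeR adjusted p was 0.127. No read of MT1M was counted in any of the 10 libraries. A count of 0 allows up to 3 reads, or 0.0127 CPM over all 10 libraries, so expression of MT1M under that level was not detectable. Both MT1F and MT1M are inducible family members whose proteins resemble that of MT2A.

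Of the 15 other metallothionein genes and pseudogenes, 9 had no reads in any library, including MT3 and MT4, the forms known from brain and from stratified epithelia, and MT1B. Another of the 9, the pseudogene MT2P1, has no window of 84 bases that is found nowhere else (0.0%), so its 0 does not show absence. The 6 with reads had 31 in all, with at most 4 in 1 library. MT1A had 1 read in siCtrl and 0 in siDDX41, MT1H 2 and 0, the pseudogene MT1JP 4 and 0, MT1P1 4 and 4, MT1P3 4 and 2, and MT1XP1 5 and 5. MT1E, MT1X and MT2A therefore held 103966 of the 104011 reads of the family, or 99.96%. Within the cluster, genes with few or no reads lie both between the 3 expressed genes and, as for MT3 and MT4, upstream of MT2A.

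**Figure D3:**
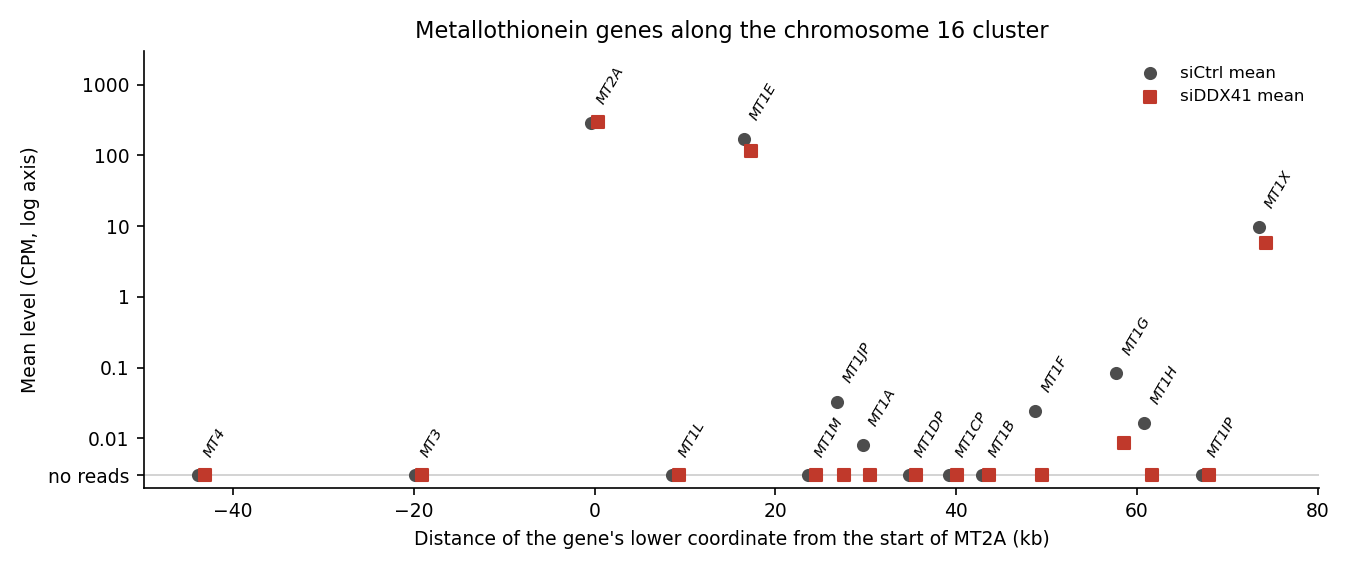
Mean level in CPM (log axis, with genes without reads placed on the grey line) of the metallothionein genes and pseudogenes of the chromosome 16 cluster against the distance in kb of each gene's lower coordinate from the start of MT2A, for siCtrl (grey circles) and siDDX41 (red squares). MT2A, MT1E and MT1X stand above 5 CPM and every other gene is under 0.1 CPM.

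Within the groups, MT2A and MT1E often deviated from their means in the same direction. In siCtrl replicate 2, MT2A was 0.25 above its group mean on the log2 scale, MT1E 0.13 and MT1X 0.17 above, and MTF1 was below (−0.10). In siCtrl replicate 3, MT2A (−0.19), MT1E (−0.09) and MT1X (−0.12) were all below their means and MTF1 was above (0.06). In the siDDX41 group, replicate 3 had high MT2A (0.14) and MT1E (0.11) but low MT1X (−0.13). So MT1X did not follow the other 2 genes in every library. The median deviation of 140 other tested genes with transcripts of at most 600 bases and at least 10 CPM lay between −0.04 and 0.04 and was on the same side of 0 as MT1X in all 10 libraries. Between groups these 140 genes had a median log2 fold change of 0.11 (62 rose and 26 fell). Neither MT1E, whose main model has 746 bases, nor MT1X, with fewer than 10 CPM in siDDX41, would meet both limits of this set, and the part of transcript length in the MT1X values was not tested beyond the length correction, under which MT1X was at −0.81.

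Transcripts rich in G and C were compared over the same libraries. For 1297 tested genes with at least 60% GC in their transcript and at least 10 CPM, the median deviation was 0.09 in siCtrl replicate 2 and −0.08 in siCtrl replicate 3, while MT2A itself has 55.6% GC. Between groups these 1297 genes had a median log2 fold change of −0.03. Without siCtrl replicate 2, the log2 fold change of MT2A was 0.11 (edgeR adjusted p = 0.104), and after removal of each library's trend with GC content it was 0.13 (adjusted p = 0.180), so MT2A stayed uncalled. MT1E under the GC correction was −0.49 and MT1X −0.70, both still called.

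The tested genes whose level over the 10 libraries was most like that of MT2A were GNB2 (Pearson r = 0.967), TWF2 (0.958), C7orf50 (0.958), BBLN (0.954) and CDT1 (0.946). These correlations over 10 libraries are a description, since all genes share the same libraries and depth, and the 5 transcripts have between 61.6% and 67.8% GC. None of the 5 was called between the groups. The closest to MTF1 were an unnamed gene, ENSG00000273306 (r = 0.897), TRAPPC11 (0.848), ATP6AP1L (0.831), ZNF33B (0.830) and ZNF675 (0.830). ENSG00000273306 had only 62 reads in siCtrl and 61 in siDDX41, about 0.52 CPM, so counting error weighs heavily in its profile. None of the MT2A-like genes was among those closest to MTF1.

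Promoters are printed for MT2A, which was not called, and MT1X, which fell, because the metal response element is where MTF1 meets these genes. The promoter table used here, from RefSeq on GRCh38.p14, matched 3 of the 7 members, MT2A, MT1X and MTF1, and not MT1E, MT1F, MT1G or MT1M. The 250 bases before the transcription start were searched on both strands for TGCACNC and TGCGCNC, forms of the core of the metal response element. The forms differ at a fixed base, so 1 site on a strand cannot match both. Capitals mark the matches, which read as the reverse complement where they lie on the minus strand. MT2A is shown from chr16:56608334-56608583 and MT1X from chr16:56682220-56682469, both 5′ to 3′ on the plus strand.
MT2A promoter: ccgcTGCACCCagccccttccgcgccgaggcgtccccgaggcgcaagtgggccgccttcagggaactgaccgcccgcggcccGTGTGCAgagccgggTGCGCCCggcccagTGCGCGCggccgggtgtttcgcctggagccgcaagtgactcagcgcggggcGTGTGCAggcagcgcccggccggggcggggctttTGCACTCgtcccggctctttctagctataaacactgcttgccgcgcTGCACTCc
MT1X promoter: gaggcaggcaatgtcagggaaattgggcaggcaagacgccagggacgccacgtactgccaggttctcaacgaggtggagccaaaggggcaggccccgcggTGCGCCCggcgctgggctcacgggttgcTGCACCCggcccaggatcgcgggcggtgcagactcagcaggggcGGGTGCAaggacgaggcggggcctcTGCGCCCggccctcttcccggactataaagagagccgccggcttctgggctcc
The MT2A window holds 7 matches, 5 of TGCACNC and 2 of TGCGCNC, and that of MT1X holds 4, 2 of each. Of 35116 promoter windows of the same length, 24.8% held at least 1 match, 0.37% at least 4 and 0.12% at least 5. The MTF1 window holds none, and that of SLC30A1 holds 1. A match is a run of letters and no measurement of binding, and both the gene that fell and the gene that was not called have several. Among family members with at most a few reads, the window of MT1H holds 8 matches and those of MT1B and MT4 hold 3 each, and both windows listed for SLC39A10 hold 0.

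Of 7 listed genes that MTF1 is known to act on outside the metallothioneins, 6 were tested, and 2 rose, 1 fell and 3 were not called. The median log2 fold change was 0.13 against −0.0014 over all tested genes, of which 30.3% were higher and 32.1% lower. The list holds SLC39A10, which MTF1 represses, beside other targets, so its median is no measure of MTF1 activity. SELENOH (0.31), GCLC (−0.06) and SLC40A1 (−0.05) were the genes not called. SLC30A1, which exports zinc across the plasma membrane, rose from 121 ± 4.20 to 171 ± 8.73 CPM (log2 fold change 0.50, standard error 0.03, edgeR adjusted p = 6.93e-14). SLC39A10, a plasma membrane zinc importer that MTF1 is known to repress, rose from 126 ± 2.84 to 232 ± 10.9 CPM (0.88, standard error 0.03, adjusted p = 1.91e-20). The gene that fell was PGF, a growth factor of the VEGF family (−0.38, adjusted p = 1.60e-05), named here after its value was seen. Groups did not overlap for SLC30A1, SLC39A10 or PGF. SLC30A1 and SLC39A10 thus rose and PGF, MT1E and MT1X fell, while MTF1 RNA was not called. The part of MTF1 activity in these changes was not tested.

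The zinc transporter families each held genes that rose and genes that fell. Over all tested genes 30.3% were higher and 32.1% lower, and a difference of these families from those shares was not tested. Of 8 tested exporters of the SLC30 family, 3 rose, 2 fell and 3 were not called (median log2 fold change 0.02). Besides SLC30A1, the smallest adjusted p was that of SLC30A2, a vesicular zinc transporter counted among the 2 that fell. It had 157 reads in siCtrl (1.31 ± 0.239 CPM) and 11 in siDDX41 (0.0935 ± 0.0451 CPM). No siDDX41 library held more than 0.130 CPM, so this gene passed the filter on low counts through siCtrl. Its call is therefore not read as a result here. Of 10 tested importers of the SLC39 family, 6 rose, 3 fell and 1 was not called (median 0.16). The count of rises was 4 to 6 and that of falls 3 to 4 over the alternatives, with 4 of each under the DESeq2 Wald test. The smallest adjusted p there was that of SLC39A14, an importer of zinc, iron and manganese, which fell from 195 ± 4.69 to 102 ± 1.19 CPM (−0.93, standard error 0.03, adjusted p = 3.04e-22). SLC39A7 was listed at 0 reads in all libraries, as was RXRB, which overlaps it on the opposite strand. Such a 0 may reflect how reads with several mapping places were counted, which was not tested, and is not read as absence of expression.

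Of 12 tested copper handling genes, whose products share copper with metallothioneins, 3 were higher, 5 lower and 4 not called (median log2 fold change −0.12). Over all tested genes 30.3% were higher and 32.1% lower, and a difference of this list from those shares was not tested. ATOX1, a copper chaperone, rose by 0.53 (edgeR adjusted p = 9.87e-14) and the copper-zinc superoxide dismutase SOD1 rose by 0.38 (adjusted p = 4.39e-13). CCS, the chaperone that loads copper onto SOD1, fell from 15.2 ± 0.976 to 9.38 ± 0.491 CPM (−0.70, adjusted p = 3.43e-11) and is named here after its value was seen. ATOX1 shares 130 exon bases with G3BP1 on the opposite strand.

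**Figure D4:**
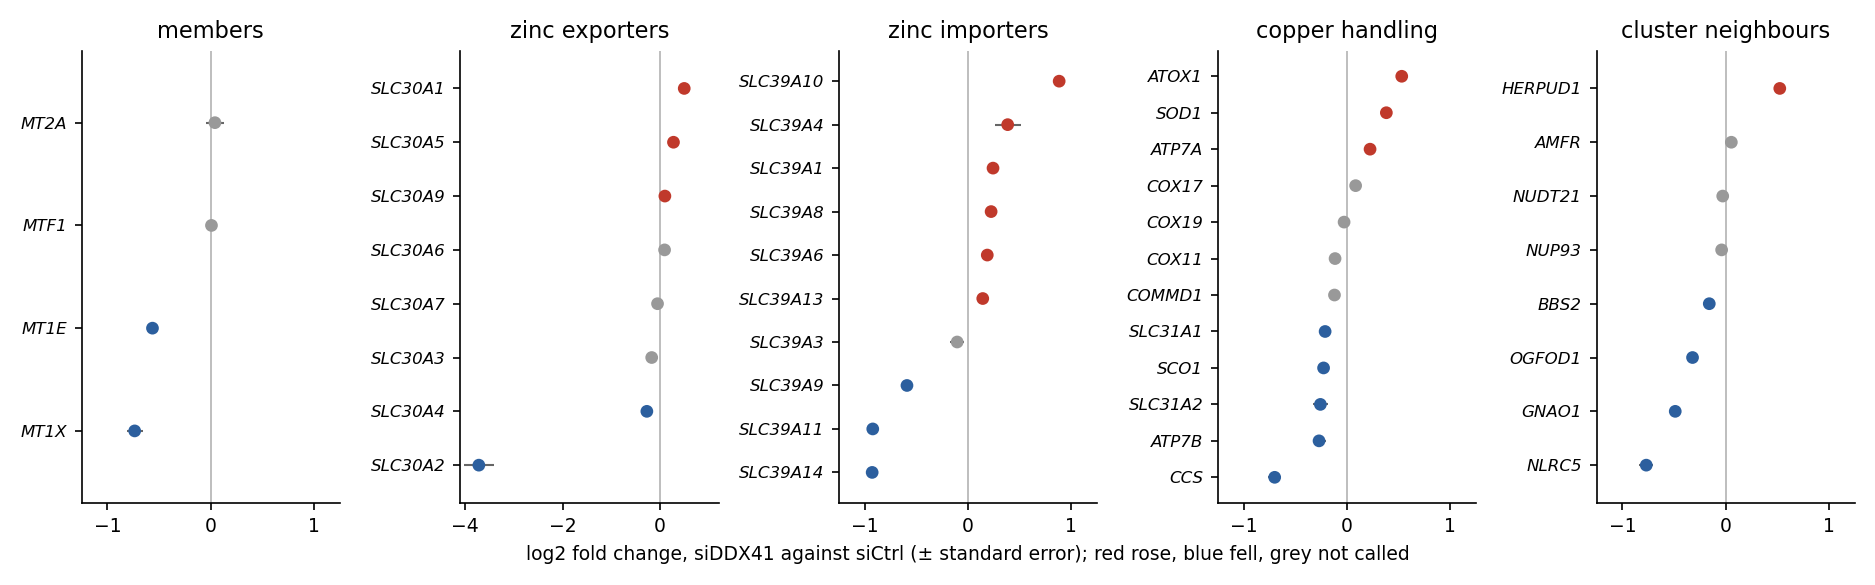
log2 fold change of siDDX41 against siCtrl with its standard error (horizontal axes, which differ in range for the zinc exporters) for the tested members, zinc exporters, zinc importers, copper handling genes and genes that flank the metallothionein cluster, with genes called higher in red, lower in blue and not called in grey. MT1E and MT1X lie at −0.56 and −0.74 and MT2A and MTF1 near 0, while every other panel holds genes on both sides of 0.

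Factors other than MTF1 that act on metallothionein promoters gave 3 higher, 3 lower and 1 not called of 7 tested (median log2 fold change −0.01). The count of rises was 2 or 3 and that of falls 2 or 3 over the alternatives, and EP300, with an edgeR adjusted p of 0.00839, was the rise nearest the threshold. NFE2L2, the regulator of antioxidant genes, rose from 95.7 ± 2.06 to 150 ± 1.72 CPM (0.64, edgeR adjusted p = 2.05e-18), though 23.4% of its exon bases are shared with HNRNPA3 on the opposite strand, which has more reads. STAT3, a cytokine-activated factor, rose from 204 ± 4.41 to 261 ± 7.65 CPM (0.36, adjusted p = 1.51e-12). The factors that fell were SP1 (−0.31, edgeR adjusted p = 1.60e-09), NR3C1 (−0.14, adjusted p = 0.00021) and USF2 (−0.13, adjusted p = 0.00185). Of 8 tested glucocorticoid response genes, 4 rose, 3 fell and 1 was not called (median 0.06), with ERRFI1, a feedback inhibitor of the EGF receptor, higher by 0.96 (adjusted p = 1.98e-21) and FKBP5, a cochaperone of the glucocorticoid receptor, lower (−0.47, adjusted p = 1.30e-10). Both lists are to be read beside all tested genes, of which 30.3% were higher and 32.1% lower. The part of these factors and of glucocorticoid signalling in the lower MT1E and MT1X was not tested.

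Genes of the response to metals and damaged proteins included large rises. Of 9 tested, 5 rose, 2 fell and 2 were not called, with a median log2 fold change of 0.08. Over all tested genes 30.3% were higher and 32.1% lower, and a difference of this list from those shares was not tested. The count of rises was 4 or 5 and that of falls 1 or 2 over the alternatives. TXNRD1, thioredoxin reductase, rose from 238 ± 4.53 to 714 ± 44.7 CPM (1.58, edgeR adjusted p = 1.03e-22), and the cystine transporter SLC7A11 rose from 63.8 ± 3.07 to 162 ± 11.0 CPM (1.34, adjusted p = 1.43e-17). Both are targets of NFE2L2. So are GCLM, which rose (0.60), HMOX1, which fell, and GCLC, which was not called (−0.06). The part of NFE2L2 in these changes was not tested. The 2 genes of this list that fell were DNAJB1 (−0.30, edgeR adjusted p = 3.14e-10) and HMOX1 (−0.13, adjusted p = 0.00831). HSPA1A and HSPA1B, near-identical copies, were listed at 0 reads in all libraries, and the same limit applies to them as to SLC39A7.

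The position of the cluster was compared with the genes that flank it on chromosome 16. Of 8 tested neighbours, 1 rose, 4 fell and 3 were not called (median log2 fold change −0.10). The count of rises was 1 or 2 and that of falls 3 to 5 over the alternatives. HERPUD1, a gene of the endoplasmic reticulum stress response, rose from 68.0 ± 1.56 to 97.8 ± 1.68 CPM (0.52, edgeR adjusted p = 1.95e-15), and NLRC5, a regulator of MHC class I genes, fell from 13.4 ± 1.01 to 7.90 ± 0.453 CPM (−0.77, adjusted p = 2.33e-11). GNAO1 (−0.49), OGFOD1 (−0.32) and BBS2 (−0.16) fell as well and are named here after their values were seen. MT2A, with values that overlapped between groups, and MT1E and MT1X, which fell, thus lie beside neighbours of which more fell than rose. Over all tested genes 32.1% were lower and 30.3% were higher, and a difference of the neighbours from these shares was not tested.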

How the data were processed

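RNA-sequencing counts of 10 U2OS libraries, 5 siCtrl and 5 siDDX41, were used, with groups taken from the sample labels. The authors used a strand-specific mRNA kit, sequenced 84 bases from 1 end, demultiplexed them with bcl2fastq 2.19, mapped them with STAR 2.7 to hg38 with Gencode release 25, and deposited whole read counts per gene from featureCounts 1.6, without normalization. The strand setting of the counting is not given in the sources used here.

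Genes were named by Ensembl identifier without its version through GENCODE release 44. Counts were tested in R 4.3.3 with edgeR 4.0.16 (filterByExpr, TMM, the robust quasi-likelihood fit and its F test, with Benjamini-Hochberg adjusted p under 0.01). DESeq2 1.42.0 and limma 3.58.1 served as alternatives. Permutation tests were exact and two-sided. Python 3.11.15 with scipy 1.17.1 and pandas 2.3.3 was used otherwise. The members, the gene lists and the tests were chosen with earlier results of these data known.

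Named genes are the 7 members, DDX41, other metallothionein genes with reads, up to 2 genes per list with the smallest adjusted p, SLC30A1, and the 5 genes most correlated with MT2A and with MTF1. Cell type markers, PGF, SELENOH, GCLC, SLC40A1, CCS, EP300, SP1, NR3C1, USF2, GCLM, DNAJB1, HMOX1, GNAO1, OGFOD1, BBS2 and genes listed at 0 are named outside this rule. Depth was 21807041 to 24896398 counts per library, which leaves genes with a few reads unresolved. Alternatives changed the scaling, filter, test, threshold, replicate block and libraries, and corrections for GC content and transcript length and the ratios between metallothionein genes, with and without single libraries, were added after seeing the data.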

Additional observations from a re-analysis of the deposited data

Results flagged for a closer look

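Among the tested genes that the naming rule chose, the summed metallothionein level and the 3 ratios, 3 of 66 groups of 5 libraries had 1 library set apart from the others by Dixon's criterion, and chance sets apart about 1 in 20 groups. STAT3 was lowest in siCtrl replicate 2, at 197 CPM, with the nearest library at 205 CPM. SOD1 was lowest in siCtrl replicate 3, at 229 CPM, with the nearest at 241 CPM. SLC39A14 was lowest in siDDX41 replicate 5, at 100.1 CPM, with the nearest at 102 CPM. No value of MT1E, MT1X, MT2A or MTF1 was set apart in this way.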

How the results depend on the processing

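The calls of MT1E and MT1X as lower were kept under each of the 20 alternatives, with log2 fold changes of −0.61 to −0.49 for MT1E and −0.81 to −0.69 for MT1X, and no alternative called MT2A or MTF1. The sign of these 2 uncalled genes did turn. MT2A was −0.036 under the transcript length correction and −0.0059 without siCtrl replicate 3, with a range over single libraries left out of −0.0059 to 0.11. MTF1 was −0.0035 with total counts, −0.017 without siCtrl replicate 2 and −0.0016 without siDDX41 replicate 5, with a range of −0.017 to 0.026. The log2 ratio of MT1X to MT1E reads ranged from −0.21 to −0.11 with 1 library left out. Of the metal and protein stress genes, 1 in place of 2 was lower with DESeq2, with DESeq2's size factors, with the GC correction, with no filter and with the replicate block, and 1 to 2 with a library left out. Of the cluster neighbours, 2 in place of 1 were higher under the GC and the length correction, and 3 to 5 were lower over all alternatives. Over all alternatives, rises among zinc importers numbered 4 to 6 and falls 3 to 4, rises among promoter factors 2 to 3 and falls 2 to 3, rises among zinc exporters 2 to 4 and falls 2 to 3, and falls among copper handling genes 4 to 7. The causes were not tested.

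The labels do not state that same-numbered libraries are paired, and they were treated as unpaired. Deviations of same-numbered libraries correlated at −0.05 to 0.04 over all tested genes. Noise of genes with few reads could hide a shared effect in this measure, so it does not settle pairing. With the replicate block, MT1E was at −0.56, MT1X at −0.73, MT2A at 0.05 and MTF1 at 0.01 (log2), and 5097 genes were lower and 4790 higher over the whole table. Depth limits MT1F, MT1G and MT1M, with 3 reads or fewer per library. MT1F and MT1G had a fitted value only with the filter removed, and MT1M under no alternative.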
